A study of Mus musculus with 38 samples.

Results

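Histone marks were examined at 10 genes that carry the Wnt signal inside the cell, out of 21938 protein-coding genes annotated on the mouse chromosomes used here. The genes were *Ctnnb1*, *Lef1*, *Tcf7*, *Tcf7l1*, *Tcf7l2*, *Axin2*, *Apc*, *Wls*, *Nkd1* and *Znrf3*, a list defined by pathway membership. Each was represented by its gene body with 50 kb on either side in the mm10 build, and every deposited interval that overlapped this window by at least 1 bp was assigned to the gene. The 10 windows spanned 2003646 bases in all.

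The marks were profiled by MINT-ChIP, a chromatin immunoprecipitation method in which nuclease-cut chromatin is barcoded before the antibody is added. Male mice of the genotype K14rtTA; TRE-myc-Sox9 received DOX from postnatal day 21, and epidermal stem cells (EpdSCs) were sorted before DOX (D0) and after 1, 2 and 6 weeks (W1, W2 and W6). W12 was reached differently, in neonatal skin of the same genotype that was grafted onto female Nude hosts and given DOX only after healing. Tissue of origin, host and time can therefore not be told apart at W12. From D0 to W6 the mice also grew older as time on DOX rose. Age and time on DOX can therefore not be told apart in any comparison with D0 below. The *Krt14* promoter drives the rtTA activator, so that the transgene is restricted to basal keratinocytes and their derivatives, and D0 cells carry the same alleles without DOX. The sort kept cells negative for CD31, CD45, CD117, CD140a and CD34 and high for CD49f and Ly6A. In culture, K14rtTA EpdSCs of male mice carried lentiviral, DOX-inducible SOX9 that was wild type (WT), lacked the DNA-binding HMG domain (ΔHMG) or lacked the transactivation domain (ΔTA); the cultured baseline was the WT line without DOX. There were 38 libraries, and each sample was represented by a high and a low digest with the nuclease (MNase), so that libraries do not count biological replicates. For each mark 2 of them, 1 per digest, held a W2 replicate together with W12, told apart by barcode. The authors pooled replicates into 1 list per mark and condition, 14 lists in all, so that no spread between replicates could be measured, no p-value is given, and each list stands alone.

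As background, β-catenin (*Ctnnb1*) is held low by a destruction complex that includes APC and AXIN proteins. When a Wnt ligand, secreted with the help of WLS, engages its receptor, β-catenin accumulates, enters the nucleus and binds LEF/TCF factors, which recognize DNA and otherwise recruit repressors. *Axin2*, *Nkd1* and *Znrf3* are targets of the pathway whose products restrain it in turn. In skin this pathway is best known for activating hair follicle stem cells and for specifying the follicle from epidermis. H3K4me1 marks enhancers, and H3K27ac marks those enhancers and promoters that are active.

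H3K27ac lists held 29081 to 33985 peaks over 23.08 to 32.07 Mb, skin H3K4me1 lists 69439 to 87287 domains over 263.6 to 309.7 Mb, and the cultured H3K4me1 lists 110589 to 123338 domains over 119.7 to 133.2 Mb. H3K27ac peaks were broadest at W2 (median width 821 bp) and narrowest at W12 (476 bp). The highest fold enrichment over background was 94.6 at D0 and 41.6, 44.2, 49.5 and 58.6 at W1, W2, W6 and W12. The median fold was 6, 5.39, 6.32, 6.56 and 4.96 over the same lists. A lower fold after D0 at a single start is therefore not read below as particular to that start. Counts were thin: the strongest peak in each of the 10 windows held 16 to 32 fragments at its summit at D0 and 10 to 26 at W2. The labelled cell type was checked at start sites of basal epidermal genes (*Krt5*, *Krt14*, *Itga6*, *Itgb4*, *Trp63* and *Col17a1*): 4 or 5 of 6 carried H3K27ac in every list. None of 4 genes of the cells sorted against, and none of 5 genes of other cell types, carried it in any list. H3K4me1 separated these groups less, since 2 or 3 of the 4 and 2 or 3 of the 5 carried it at a start site in every list, beside 3 to 5 of the 6 basal genes. Of 5 hair follicle stem cell genes (*Sox9*, *Lhx2*, *Nfatc1*, *Cd34* and *Tcf7l1*), 4 carried H3K27ac at W2 and 1 or 2 in each of the other lists. *Tcf7l1* is also one of the 10 genes described here and carried it at W2 alone; of the other 4, *Sox9*, *Lhx2* and *Nfatc1* carried it at W2. The part that any admixed cell type, or the wider W2 peaks, played in the results below was not tested.

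The part of these windows under H3K27ac peaks was largest at W2, where the list as a whole also covered the most bases. Together the 10 windows held 56.7 kb of H3K27ac before DOX and 78.1, 84, 58.8 and 40.5 kb at the successive later time points. As a share of all H3K27ac bases in each list, this was 0.208, 0.266, 0.262, 0.193 and 0.175% at D0, W1, W2, W6 and W12. At W2, 4 genes had at least 1.5-fold more acetylated bases than at D0, against a background of 23.9% of all genes tested: *Tcf7l2*, *Tcf7l1*, *Ctnnb1* and *Apc*. *Lef1* alone had at least 1.5-fold fewer, against 16.7% of all genes. The median log2 ratio of W2 to D0 was 0.35 over the 10 genes and 0.10 over all genes with both values. The log2 ratio of all bases in the W2 list to those in the D0 list was 0.23.

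**Figure D1:**
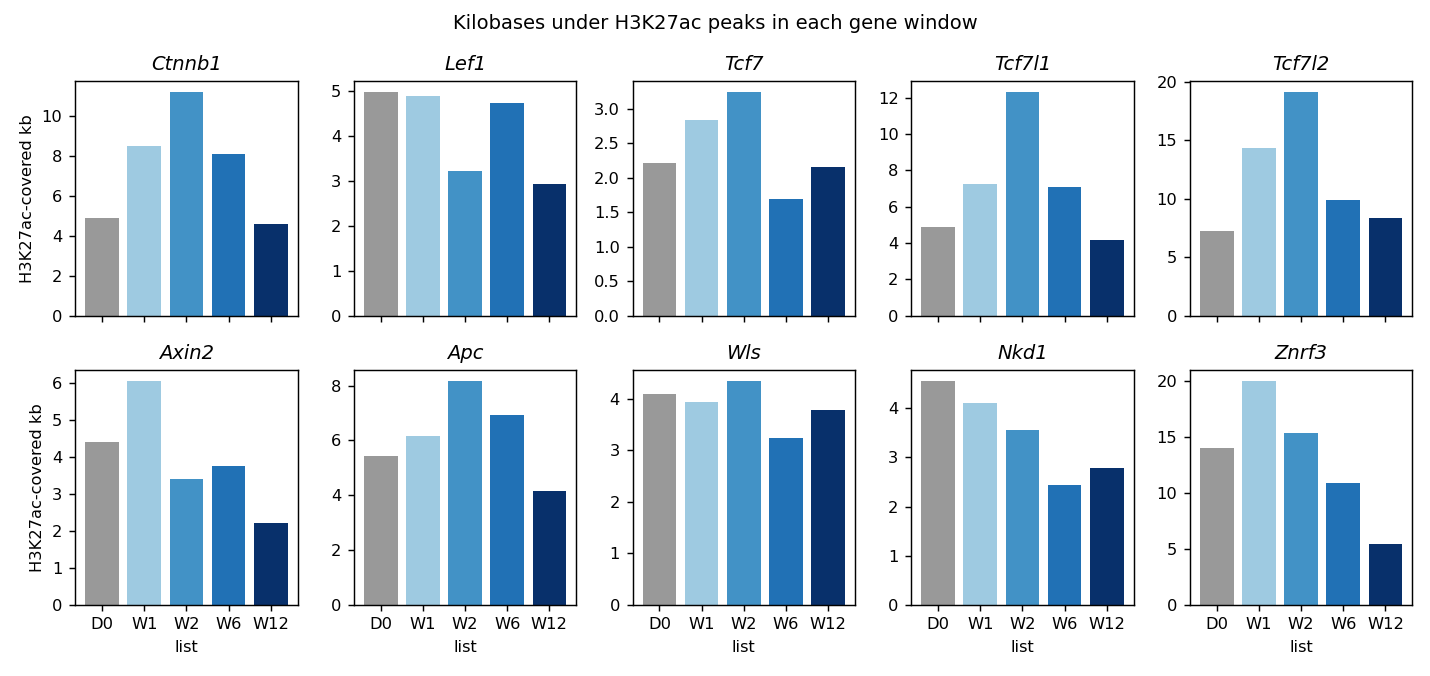
Kilobases covered by H3K27ac peaks in each gene window (vertical axis, scaled for each gene from 0) in the 5 pooled skin lists (horizontal axis). The bars of *Ctnnb1*, *Tcf7l1*, *Tcf7l2* and *Apc* are highest at W2, whereas those of *Axin2* and *Znrf3* are highest at W1 and lowest at W12.

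*Ctnnb1*, which encodes β-catenin itself, lies on the plus strand at chr9:120929216-120960507. Its window held 4.88, 8.51, 11.2, 8.1 and 4.59 kb of H3K27ac at D0, W1, W2, W6 and W12. The W2 value was 2.28-fold the D0 value, and the ratio was above 1.5 at W1 (1.74) and W6 (1.66) as well. Most of the W2 difference lay outside the gene: within the gene body alone, a boundary added after seeing the data, the values were 3.66 kb at D0 and 4.76 kb at W2 (log2 ratio 0.38). H3K4me1 covered 59.2, 53.4, 73.8, 64 and 57 kb in the order D0, W1, W2, W6 and W12.

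At least 1 of the 2 annotated *Ctnnb1* starts carried H3K27ac in every list, with a fold enrichment over background of 14, 10, 7.72, 17.3 and 7.79 at D0, W1, W2, W6 and W12. A new peak appeared in the window's far flank. A region at chr9:121000790-121002892, in an intron of the neighbouring gene *Ulk4* and 68269 bp from the nearest *Ctnnb1* start, had no peak at D0, was called at 6.93, 11.9 and 5.96 times background at W1, W2 and W6, and was again without a peak at W12. At W2 it was the strongest peak of the window (16 fragments, 95% Poisson interval 9.15 to 26 for counting error only). In culture the same place held an H3K4me1 domain in all 4 conditions. Since the region lies within another gene, its assignment to *Ctnnb1* rests on distance only.

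The DNA under the second W2 peak of the *Ctnnb1* start, in an intron, is shown because it combines the letters searched for TCF/LEF and SOX factors. The TCF/LEF search used CTTTGAA as well as CTTTGAT, and further CTTTGTA or else CTTTGTT. The SOX search used CATTGTT or alternatively CCTTTGT. Each was read on both strands, and the last of them overlaps with both TCF/LEF patterns that end in TA or TT, so that 1 stretch can count for both. Matches are in capitals in this and the following sequences, all of which are reference sequence.
Ctnnb1 intron, chr9:120934724-120935023, plus strand: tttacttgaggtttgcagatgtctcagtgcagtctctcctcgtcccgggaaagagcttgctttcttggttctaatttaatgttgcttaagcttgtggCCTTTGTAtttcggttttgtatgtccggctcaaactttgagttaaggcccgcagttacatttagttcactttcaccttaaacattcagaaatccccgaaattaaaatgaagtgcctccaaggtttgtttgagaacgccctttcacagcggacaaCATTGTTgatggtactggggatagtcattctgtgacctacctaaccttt
The stretch holds 1 TCF/LEF match and 2 SOX matches, of which 1 of the SOX matches shares bases with the TCF/LEF match.

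Over all W2 H3K27ac peaks, 19.9% held a TCF/LEF match and 10.2% a SOX match in the 300 bases around the summit. Among the 76 W2 peaks of the 10 windows, 21 held a TCF/LEF match (27.6%, exact 95% interval 18 to 39.1%) and 9 a SOX match (11.8%, 5.56 to 21.3%). At D0, 19 of 69 member peaks held a TCF/LEF match (27.5%, 17.5 to 39.6%), beside 18.5% of all peaks. Among the 36 W2 peaks that D0 lacked, 8 held a TCF/LEF match (22.2%, 10.1 to 39.2%), beside 23.8% of all such peaks. The counting intervals of these values included the share of all peaks. In 2 other lists the TCF/LEF interval did not: 27 of 86 member peaks held a match at W1 (31.4%, 21.8 to 42.3%), beside 20.4%, and 18 of 60 at W6 (30%, 18.8 to 43.2%), beside 18.5%. At W12 the count was 16 of 66 (24.2%, 14.5 to 36.4%), beside 21.3%. Among peaks that D0 lacked, the TCF/LEF share was 32.5% of 40 at W1 (18.6 to 49.1%), beside 24.5%, 40.9% of 22 at W6 (20.7 to 63.6%), beside 22%, and 16.1% of 31 at W12 (5.45 to 33.7%), beside 24.7%. SOX matches in the full lists stood at 7.25% of member peaks at D0, beside 9.07%, at 16.3% at W1 (9.2 to 25.8%), beside 10%, at 8.33% at W6, beside 9.46%, and at 7.58% at W12, beside 10.1%. These matches describe letters in a window and do not identify bound sites.

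Among the LEF/TCF factors, the highest ratio of W2 to D0 over the whole window was at *Tcf7l2*, which encodes TCF4. It lies on the plus strand at chr19:55741820-55933654 and is the only protein-coding gene in its window. H3K27ac covered 7.28, 14.3, 19.1, 9.91 and 8.37 kb at D0, W1, W2, W6 and W12. The W2 value was 2.62-fold the D0 value and ranked at the 94.4th percentile of genes with both values. Of 15 W2 peaks, 10 had no D0 counterpart, against 40.1% of all W2 peaks, and of 11 D0 peaks 4 had none at W2, against 38.6% of all D0 peaks. H3K4me1 domains covered 114 kb at D0 and 121, 176, 129 and 124 kb at W1, W2, W6 and W12. The number of H3K4me1 domains was lower at W2 (13) than at D0 (27) while the widest measured 11.8 kb at D0 and 52 kb at W2.

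Of the 9 annotated *Tcf7l2* start sites, 8 lie close together at chr19:55741820-55742342. A single peak spanned all 8 at W1 (3696 bp wide) and at W2 (3650 bp). At D0, W6 and W12 one peak ended just upstream of this stretch and another began inside it, so that 2, 5 and 5 start sites were overlapped. The peak over the start sites had a fold of 11.3, 10.8, 11.2, 13.7 and 9.21 at D0, W1, W2, W6 and W12, so that its extent differed more than its height between D0 and W2. A region in an intron near the gene start, chr19:55748736-55753230, was acetylated in every list, at 6, 4.62, 9.82, 7.16 and 17 times background at D0, W1, W2, W6 and W12.

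Over all 10 windows, 2 of the W2 peaks were absent at D0 and present at both W6 and W12, and both lay in introns of TCF genes. Both were also called at W1, a pattern of 2 among 145 merged regions (1.38%), beside 1.61% of all merged regions. The first, at chr19:55788558-55789496, was 46216 bp from the nearest *Tcf7l2* start and was without a peak before DOX, then 5.39, 6.32, 4.17 and 4.57 times background at W1, W2, W6 and W12. Its summit sequence is shown because the same place was marked in culture with WT SOX9 alone.
Tcf7l2 intron, chr19:55788904-55789203, plus strand: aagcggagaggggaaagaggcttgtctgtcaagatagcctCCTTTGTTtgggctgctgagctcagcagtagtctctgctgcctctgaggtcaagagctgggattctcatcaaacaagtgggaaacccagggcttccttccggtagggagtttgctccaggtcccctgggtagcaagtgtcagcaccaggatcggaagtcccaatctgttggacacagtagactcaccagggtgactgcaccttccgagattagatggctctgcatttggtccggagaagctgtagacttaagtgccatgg
The capitals hold a single run in which a CCTTTGT match for SOX factors and a CTTTGTT match for TCF/LEF factors overlap.

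In cultured EpdSCs this *Tcf7l2* interval lay in an H3K4me1 domain, chr19:55786792-55789664, that was called with WT SOX9 (2.91-fold) and in neither the cells without DOX nor those with ΔHMG or ΔTA. Over the whole *Tcf7l2* window, H3K4me1 covered 19.1 kb without DOX, 43.2 kb with WT SOX9, 20.5 kb with ΔHMG and 22.5 kb with ΔTA. The WT value was 2.26-fold that without DOX, and was the only one of the 10 windows to be at least 1.5-fold higher with WT, against 15.7% of all genes. Both truncated variants were closer to the cells without DOX. Of 26 WT domains at *Tcf7l2*, 11 had no counterpart without DOX, against 29.1% of all WT domains, and 9 of these were also absent with both variants. Regions called with WT and not without DOX were mostly WT alone across the genome as well. Of all merged culture regions, 14% were called with WT alone. A further 1.64% were called with WT and ΔTA, 1.5% with WT and ΔHMG, and 2.15% with WT and both variants.

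**Figure D2:**
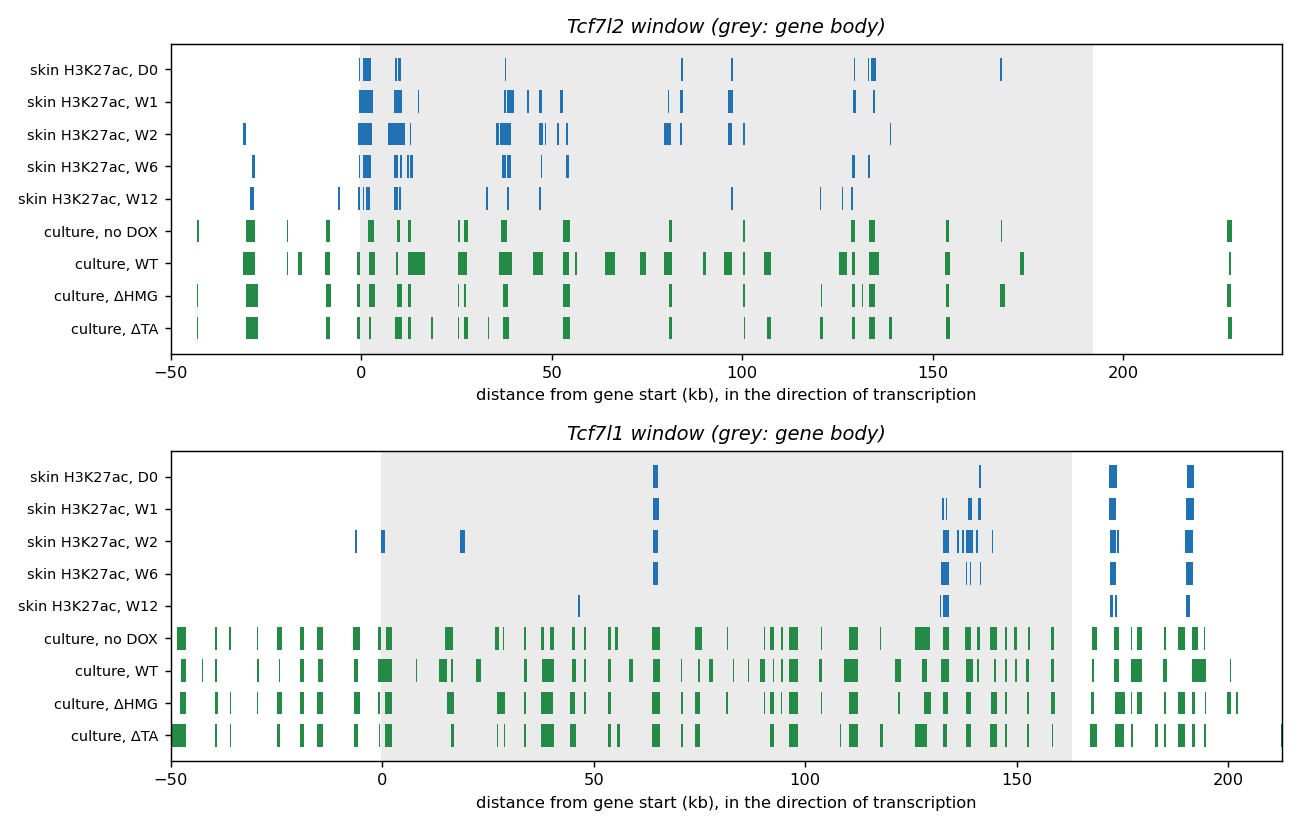
Positions of skin H3K27ac peaks (blue, D0 to W12) and culture H3K4me1 domains (green) in the *Tcf7l2* and *Tcf7l1* windows, by distance from the gene start in kb along the direction of transcription, with the gene body in grey. New H3K27ac peaks crowd the first part of *Tcf7l2* and the distal part of *Tcf7l1* at W2, and the WT row at *Tcf7l2* holds 26 domains beside 19 without DOX.

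*Tcf7l1* encodes TCF3, a factor known mainly as a repressor in skin stem cells, and lies on the minus strand at chr6:72626378-72789254. Its window held 4.87, 7.24, 12.3, 7.06 and 4.15 kb of H3K27ac at D0, W1, W2, W6 and W12. The W2 value was 2.53-fold the D0 value. Inside the gene body alone, a boundary added after seeing the data, the difference was wider, from 1.49 to 7.75 kb, a log2 ratio of 2.38. Of 13 W2 peaks, 10 were absent at D0, against the same 40.1% of all W2 peaks. The strongest peak in the window in the D0 and W2 lists (17.3-fold at D0 and 13.3-fold at W2) was the promoter of the neighbour *Tgoln1*.

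H3K4me1 at *Tcf7l1* covered 85.6, 66.6, 168, 93 and 87.6 kb at D0, W1, W2, W6 and W12. The W2 value was 1.96-fold that at D0, and ranked at the 96.1st percentile of genes. *Tcf7l1* and *Tcf7l2* were the only 2 of the 10 genes with at least 1.5-fold more H3K4me1 at W2, against 9.09% of all genes.

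The second lasting W2 gain lay in a *Tcf7l1* intron at chr6:72655279-72656622, without a peak before DOX and then 3.08, 5.61, 10.7 and 8.5 times background at W1, W2, W6 and W12. Unlike the *Tcf7l2* interval, it was already covered by an H3K4me1 domain in culture without DOX (3.34-fold) and with every variant (3.14-, 4.03- and 3.59-fold with WT, ΔHMG and ΔTA). Its summit sequence held 2 TCF/LEF matches and no SOX match.
Tcf7l1 intron, chr6:72655929-72656228, plus strand: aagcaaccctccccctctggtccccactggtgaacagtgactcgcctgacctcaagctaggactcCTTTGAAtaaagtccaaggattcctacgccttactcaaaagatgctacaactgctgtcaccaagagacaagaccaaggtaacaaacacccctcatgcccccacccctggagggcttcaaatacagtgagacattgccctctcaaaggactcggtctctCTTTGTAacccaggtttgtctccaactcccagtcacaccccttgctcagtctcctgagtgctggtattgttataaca

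At the *Tcf7l1* promoter an H3K27ac peak was called at W2 only. A peak of 4.91-fold, chr6:72788639-72789572, overlapped both annotated start sites at W2, and no other list had a peak there. Its fold was below the median of the W2 list (6.32). The part that thin counts played in its absence from the other lists was not tested. In culture, both start sites lay in an H3K4me1 domain with WT SOX9 (3.29-fold) and in none without DOX, with ΔHMG or with ΔTA, where domains were called on either side of the start instead. The promoter is shown because it is the only one of the 10 genes whose start sites held H3K27ac at W2 but not D0 and culture H3K4me1 with WT alone. It is reference sequence from RefSeq (GRCm38), holds no match to either search, and was 75.3% G and C.
Tcf7l1 promoter, chr6:72788996-72789295, minus strand: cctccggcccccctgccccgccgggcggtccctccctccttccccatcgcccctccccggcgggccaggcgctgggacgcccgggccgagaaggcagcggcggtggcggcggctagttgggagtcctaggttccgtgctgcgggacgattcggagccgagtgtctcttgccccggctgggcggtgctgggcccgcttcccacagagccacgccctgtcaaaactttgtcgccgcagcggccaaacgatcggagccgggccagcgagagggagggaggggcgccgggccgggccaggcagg
Over all RefSeq promoters of this length 16.9% held a TCF/LEF match and 9.48% a SOX match. Promoters were matched for 8 of the 10 genes, all but *Apc* and *Znrf3*, and among these 14 promoters the counts were 2 and 1.

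*Lef1* and *Tcf7*, which encode the LEF/TCF factors most tied to activating Wnt targets, differed from these. No annotated start site of either was acetylated in any list. *Lef1* lies on the plus strand at chr3:131110471-131224356, and its window held 4.98, 4.9, 3.23, 4.73 and 2.93 kb of H3K27ac at D0, W1, W2, W6 and W12. Nearly all of this lay in the neighbour *Hadh*: the strongest peak was in a *Hadh* exon at both D0 (16-fold) and W2 (14-fold). A single region within *Lef1* itself was called, at W1 only (3.85-fold). The 0.648-fold ratio at W2 therefore concerns peaks that lie in *Hadh*. H3K4me1 covered 45.2, 33, 41.4, 38.8 and 33.6 kb over the 5 lists. *Tcf7* lies on the minus strand at chr11:52252371-52283014, with 2.21, 2.83, 3.24, 1.69 and 2.16 kb at D0, W1, W2, W6 and W12. The peak of highest fold in its window was the promoter of *Skp1a* (19.3-fold at D0). Near the *Tcf7* start, a region just upstream was acetylated at D0 (3.33-fold) and W2 (4.91-fold) only.

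In culture, H3K4me1 at *Lef1* covered 19.7 kb without DOX, 13.3 kb with WT SOX9, 16.5 kb with ΔHMG and 20.6 kb with ΔTA, and at *Tcf7* 11.3, 13.4, 12.3 and 11.3 kb. *Ctnnb1* was one of 2 genes with at least 1.5-fold less H3K4me1 with WT SOX9 (28.9 kb without DOX, 17.8 kb with WT, 22.7 kb with ΔHMG and 27.4 kb with ΔTA), against a background of 7.88% of all genes. The other was *Axin2*, with 7.33 kb without DOX, 4.58 kb with WT, 7.4 kb with ΔHMG and 8.54 kb with ΔTA.

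**Figure D3:**
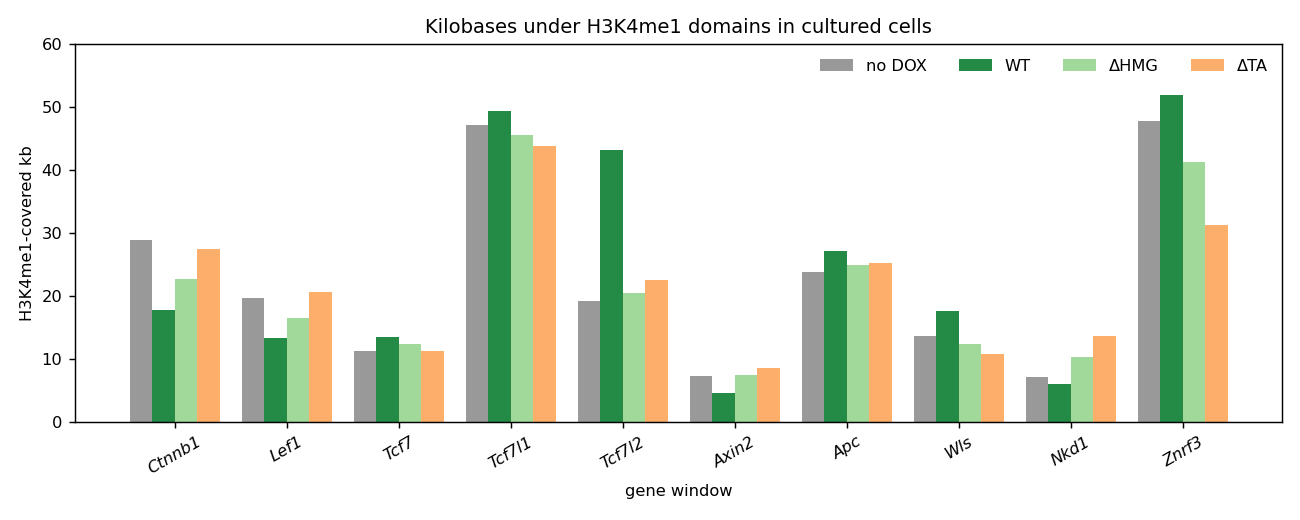
Kilobases covered by H3K4me1 domains in cultured EpdSCs (vertical axis from 0) for each of the 10 gene windows, without DOX and with WT, ΔHMG and ΔTA SOX9. *Tcf7l2* stands at 43.2 kb with WT and between 19.1 and 22.5 kb in the other 3 conditions.

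*Axin2*, a scaffold of the destruction complex and a standard readout of Wnt signalling, lies on the plus strand at chr11:108920349-108950783 with no other protein-coding gene in its window. H3K27ac covered 4.41, 6.04, 3.41, 3.75 and 2.21 kb at D0, W1, W2, W6 and W12. The region around its start was called in every list, at 14.7, 8.47, 7.72, 11.3 and 6.38 times background at D0, W1, W2, W6 and W12. Peaks overlapped an annotated start at W1, W2 and W6, and came within 30 bp of one at D0 and 86 bp at W12. The W2 summit within that region is shown because it holds an exact match (CTTTGAT, read here on the other strand) in the gene best known as a Wnt target.
Axin2 start region, chr11:108922155-108922454, plus strand: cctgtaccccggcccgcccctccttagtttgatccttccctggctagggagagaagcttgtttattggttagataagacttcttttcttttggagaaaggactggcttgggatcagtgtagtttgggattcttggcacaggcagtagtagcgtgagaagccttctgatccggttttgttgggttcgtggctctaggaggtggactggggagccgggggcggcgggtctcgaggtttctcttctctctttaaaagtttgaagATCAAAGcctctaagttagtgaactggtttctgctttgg
The 10 windows held 11 D0 peaks that no later list had (7.59% of merged regions, beside 9.29% of all), of which 2 lay at *Axin2*. The stronger of these, at chr11:108929941-108930270 in an *Axin2* intron 6760 bp from a start, was the strongest of all 11 at 5.33-fold. It held neither match in the 300 bases around its summit.
Axin2 intron, chr11:108929935-108930234, plus strand: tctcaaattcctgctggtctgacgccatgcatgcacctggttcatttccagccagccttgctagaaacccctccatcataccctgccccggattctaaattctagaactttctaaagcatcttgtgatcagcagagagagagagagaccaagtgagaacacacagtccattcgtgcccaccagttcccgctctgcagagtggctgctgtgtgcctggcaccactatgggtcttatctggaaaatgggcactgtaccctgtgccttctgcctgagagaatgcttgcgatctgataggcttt
H3K4me1 at *Axin2* covered 77.4, 74.2, 54.2, 56 and 50.6 kb at D0, W1, W2, W6 and W12, with a W12 value 0.654-fold that at D0.

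The next 4 of these D0 peaks by fold were weaker. The second *Axin2* one was 4.66-fold at chr11:108897603-108897949, 22400 bp from the start. A *Wls* intron peak at chr3:159879578-159879896 was 4.66-fold, an *Apc* intron peak at chr18:34231916-34232228 was 4.66-fold, and one in a *Kremen1* intron of the *Znrf3* window, chr11:5227847-5228352, was 4-fold.

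*Apc*, the core of the destruction complex, lies on the plus strand at chr18:34220924-34322552. Its H3K27ac was 5.43, 6.18, 8.16, 6.94 and 4.14 kb at D0, W1, W2, W6 and W12. The W2 ratio of 1.5 was at the limit of the call, and within the gene body it was smaller (log2 0.33). Of the 7 W2 peaks in the window, 2 lay in *Apc* and 5 in neighbouring genes. The 2 W2 peaks that D0 lacked lay in introns of the neighbour *Reep5*. Of its 2 annotated starts, the first was acetylated in every list, at 22, 8.47, 9.12, 17.9 and 9.92 times background at D0, W1, W2, W6 and W12. The second was overlapped by a peak at D0 alone (6.66-fold). An intronic region at chr18:34286185-34287840 stood at 4.66, 6.16, 16.1 and 9.54 times background from D0 to W6, and was without a peak at W12. At W2 it was the strongest peak of the window. Of 21 W12 peaks in the 10 windows that no earlier list had, the strongest lay downstream of *Apc* at chr18:34343909-34344224 (9.21-fold). The other 2 named ones lay in the *Znrf3* window, in a *Kremen1* intron (7.08-fold) and in a *Znrf3* intron (5.88-fold).

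*Znrf3*, a ubiquitin ligase that removes Wnt receptors, lies on the minus strand at chr11:5276324-5444847. It had the most H3K27ac of the 10 windows at D0, W1 and W6, with 14, 20, 15.4, 10.9 and 5.41 kb at D0, W1, W2, W6 and W12. The W12 value was 0.386-fold the D0 value. These totals include peaks outside *Znrf3*. Of 20 D0 peaks, 10 lay in *Znrf3*, 7 in another gene and 3 between genes, and of 11 W12 peaks 5, 5 and 1. The peak of highest fold (14.7 at D0 and 10.5 at W2) lay downstream of *Znrf3*, near the start of the neighbour *Kremen1*. *Znrf3* was 1 of 4 genes at least 1.5-fold lower at W12, against 40.5% of all genes, with *Lef1* (0.588), *Axin2* (0.5) and *Nkd1* (0.61). No gene was 1.5-fold higher at W12, against 19.9%. An intronic region at chr11:5425667-5427522 stood at 10-fold at D0, 6.93-fold at W1 and 4.91-fold at W2 and had no peak at W6 or W12. H3K4me1 covered 144, 142, 124, 122 and 114 kb over the 5 lists. In culture *Znrf3* was the only gene at least 1.5-fold lower with ΔTA (47.8 kb without DOX, 51.9 kb with WT, 41.2 kb with ΔHMG, 31.3 kb with ΔTA), against 3.81% of all genes.

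*Nkd1*, a feedback inhibitor of the pathway, lies on the plus strand at chr8:88521354-88594884. None of its 3 annotated start sites was acetylated in any list. H3K27ac in its window was 4.55, 4.11, 3.55, 2.43 and 2.78 kb at D0, W1, W2, W6 and W12. The peak of highest fold, at chr8:88636305-88639884, lay by the start of the neighbour *Snx20* and was at 20.7-fold at D0 and 12.6-fold at W2. *Nkd1* was the only gene at least 1.5-fold lower at W6, against 13.3% of all genes. In culture it was the only gene at least 1.5-fold higher with ΔTA (7.09 kb without DOX, 6.05 with WT, 10.2 with ΔHMG, 13.6 with ΔTA), against 15.8%. None of the 10 was past 1.5-fold with ΔHMG, against 8.21% of all genes higher and 4.6% lower.

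*Wls*, which carries Wnt ligands to the cell surface, lies on the plus strand at chr3:159839672-159938664. Its H3K27ac varied least of the 10 over the 5 lists, at 4.1, 3.93, 4.34, 3.24 and 3.78 kb in the order of time, and its start was acetylated in every list, at 18.7-fold at D0 and 10.5-fold at W2. H3K4me1 was lower after DOX, with 44.2 kb at D0 and 35.2, 24.6, 23 and 20.2 kb at the later time points. *Wls* was the only gene at least 1.5-fold lower at W2 in H3K4me1, against 19.7% of all genes. The same held at W6 (18.7%), and at W12 *Axin2* was lower too (19.8%).

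**Figure D4:**
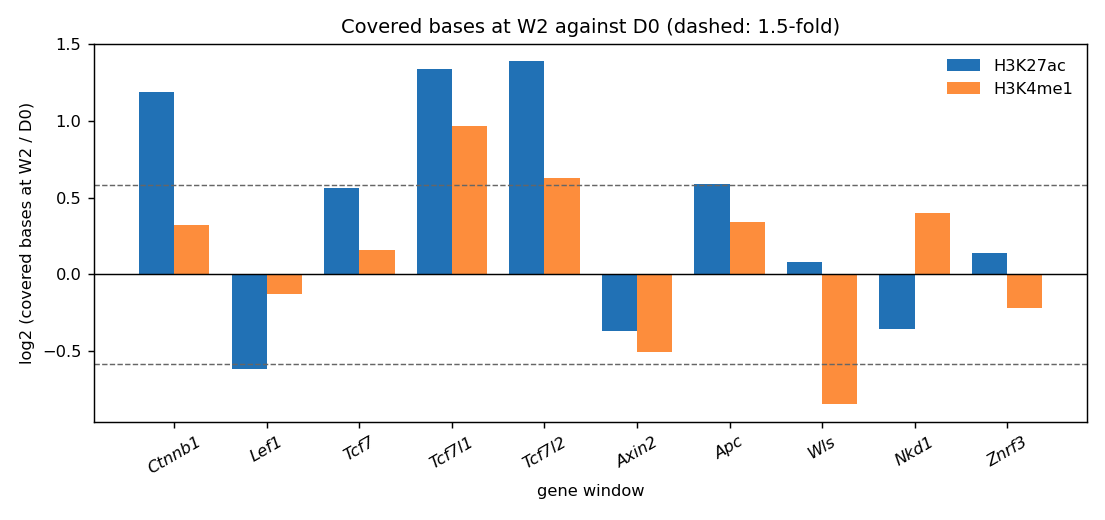
Log2 ratio of covered bases at W2 over D0 for H3K27ac (blue) and H3K4me1 (orange) in each gene window; dashed lines mark 1.5-fold in either direction. *Tcf7l1* and *Tcf7l2* are above the upper line for both marks, and *Wls* is below the lower line for H3K4me1 alone.

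At W1, *Ctnnb1* (1.74) and *Tcf7l2* (1.97) were the only genes with at least 1.5-fold more H3K27ac than at D0, against 19.5% of all genes, and none was lower, against 18.8%. At W6, *Ctnnb1* alone was higher, against 28.4%. In H3K4me1 no gene was past 1.5-fold at W1, against 2.54% of all genes higher and 18.2% lower, and none was higher at W6 (7.51%) or W12 (7.49%).

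Counted as intervals against D0, H3K27ac gains and losses of the 10 windows had counting intervals that included the share of all peaks at every time point. The members' share was below that of all domains, outside its counting interval, for H3K4me1 losses at W2 and W6, for H3K4me1 gains at W6 and for culture gains with WT and ΔTA, and it was above for culture losses with ΔTA. Of 76 H3K27ac peaks at W2, 36 had no D0 peak (47.4%, exact 95% interval 35.8 to 59.2%), against 40.1% of all W2 peaks. Of 69 D0 peaks, 27 had no W2 peak (39.1%), against 38.6%. For H3K4me1, 23 of 123 W2 domains had no D0 domain (18.7%), against 20%, and 39 of 168 D0 domains had no W2 domain (23.2%, 17.1 to 30.3%), against 32.4%. In culture, 41 of 198 WT domains had no counterpart without DOX (20.7%, 15.3 to 27%), against 29.1%, and 42 of 207 domains without DOX had no WT counterpart (20.3%), against 25.1%. The new W2 peaks were unevenly spread, with 20 of 36 at *Tcf7l1* and *Tcf7l2* and none at *Lef1* or *Nkd1*.

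At the other time points, H3K27ac peaks without a D0 counterpart made up 40 of 86 at W1 (46.5%, against 41.3% of all peaks), 22 of 60 at W6 (36.7%, against 39.8%) and 31 of 66 at W12 (47%, against 56.2%). D0 peaks without a counterpart numbered 21 of 69 by W1 (30.4%, against 37.4%), 28 by W6 (40.6%, against 37.8%) and 37 by W12 (53.6%, against 53.7%). New H3K4me1 domains numbered 7 of 139 at W1 (5.04%, against 5.96%), 15 of 143 at W6 (10.5%, 5.99 to 16.7%, against 17.1%) and 13 of 132 at W12 (9.85%, against 15.6%), and of 168 D0 domains 36 were missing at W1 (21.4%, against 27.8%), 32 at W6 (19%, 13.4 to 25.8%, against 26.6%) and 45 at W12 (26.8%, against 31.2%). In culture 30 of 205 domains with ΔHMG were new (14.6%, against 19.3%) and 33 of 187 with ΔTA (17.6%, 12.5 to 23.9%, against 25.8%). Of 207 domains without DOX, 30 were missing with ΔHMG (14.5%, against 15.6%) and 48 with ΔTA (23.2%, 17.6 to 29.5%, against 17.5%). Of these 48, 16 lay at *Znrf3* and 0 to 9 in each other window.

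Successive lists were compared in the same way. From W2 to W6, 34 of 76 H3K27ac peaks were lost (44.7%, 33.3 to 56.6%), against 31.6% of all W2 peaks, and the counting interval did not include the latter. The losses were unevenly spread, with 9 at *Tcf7l2*, 8 at *Tcf7l1*, 8 at *Znrf3* and 0 to 2 in each other window. The counting interval does not allow for such clustering, so the share is not read as a trait of all 10 windows. New W6 peaks numbered 16 of 60 (26.7%, against 31.3%). From W1 to W2, 27 of 76 peaks were new (35.5%, against 34.8%) and 34 of 86 were lost (39.5%, against 37%). From W6 to W12, 34 of 66 were new (51.5%, against 51.9%) and 31 of 60 were lost (51.7%, against 50.2%). For H3K4me1, new domains made up 25 of 123 from W1 to W2 (20.3%, against 24%), 21 of 143 from W2 to W6 (14.7%, 9.33 to 21.6%, against 23.4%) and 11 of 132 from W6 to W12 (8.33%, against 11.8%). Lost domains made up 21 of 139 (15.1%, against 17.5%), 22 of 123 (17.9%, against 19.4%) and 29 of 143 (20.3%, against 19%) over the same steps. In culture, 48 of 205 ΔHMG domains were absent with WT (23.4%, against 28.1%) and 47 of 198 WT domains absent with ΔHMG (23.7%, against 28.9%). Between WT and ΔTA, 48 of 187 ΔTA domains were absent with WT (25.7%, 19.6 to 32.6%, against 33.9%) and 64 of 198 WT domains absent with ΔTA (32.3%, against 30.5%). Between the truncated variants, 27 of 187 ΔTA domains were absent with ΔHMG (14.4%, 9.74 to 20.3%, against 21.7%) and 45 of 205 ΔHMG domains absent with ΔTA (22%, against 16.7%).

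When peaks of all 5 lists were merged, the 10 windows held 145 H3K27ac regions. Of these, 22 were called in all 5 lists (15.2%, beside 15.6% of all merged regions), 20 at W2 alone (13.8%, beside 7.13%) and 21 at W12 alone (14.5%, beside 21.2%). Peaks first called at W2 lay in an H3K4me1 domain already at D0 in 22 of 22 cases (exact 95% interval 84.6 to 100%), beside 85.9% of all such peaks. For peaks first called at W1 the count was 40 of 40 (91.2 to 100%), beside 91%. At D0, H3K4me1 covered a median of 32.4% of the window over the 10 genes and 18.3% over all genes. The part this denser cover played in these counts, or in the H3K4me1 gains and losses above, was not tested.

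The W2 gains were set against the culture lists. Of the 36 new W2 peaks, 26 overlapped a culture domain in some condition (72.2%, 54.8 to 85.8%), beside 75.3% of all new W2 peaks. A domain with WT and none of any other condition was overlapped by 3 (8.33%, 1.75 to 22.5%), beside 9.93%. These 3 were the *Tcf7l1* promoter, the lasting *Tcf7l2* intron gain and a W2-only peak upstream of *Tcf7l2* at chr19:55710751-55711457. At the first and the last of these the other conditions had domains close by that did not reach the peak. Of 269 merged culture regions in the 10 windows, 29 were called with WT alone (10.8%, beside 14% of all regions), and of these 9 lay at *Tcf7l2* and 7 at *Tcf7l1*. The 3 of highest fold lay elsewhere, with 2 upstream of *Nkd1* (6.06- and 5.1-fold) and 1 in a *Lef1* intron (4.81-fold). Of 10 regions called without DOX and with none of the 3 variants (3.72%, beside 3.96% of all), the strongest lay in introns of *Znrf3* (3.45-fold) and *Apc* (3.32-fold) and upstream of *Axin2* (3.27-fold).

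The 10 genes were set beside 35 other genes of the pathway, from a list chosen, like the 10 members, with earlier results of these data known. At W2, 11 of the 35 had at least 1.5-fold more H3K27ac than at D0, against 23.9% of all genes, and 5 had fewer, against 16.7%. Those higher were 1 of 7 destruction complex genes, 3 of 9 co-activators, 4 of 9 repressors and 3 of 10 targets, feedback and secretion genes. They included *Axin1*, the other AXIN scaffold (log2 2.07), and the co-activators *Cdc73* (0.77), *Tbl1xr1* (0.68) and *Ep300* (0.67). Also higher were 3 of the TLE family, whose full-length members are corepressors recruited by TCF factors. These were *Tle1* (3.02, from 951 covered bases at D0), *Tle3* (0.96) and *Tle5* (0.94), while *Tle4* was lower (-0.68). *Notum*, a secreted Wnt inhibitor, was lower, with 5420 covered bases at D0 and 2719 at W2. In H3K4me1, 4 were higher at W2 (9.09% of all genes) and 2 lower (19.7%), with *Lgr5*, a receptor that marks hair follicle stem cells, at 1.91 and *Tle1* at 1.33. In culture with WT SOX9, 5 were higher (15.7% of all genes) and 1 lower (7.88%), those higher including *Tle1* (log2 0.99) and *Nkd2*, a relative of *Nkd1* (6574 covered bases without DOX and 18623 with WT). The median log2 ratio of H3K27ac at W2 over the 35 genes was 0.07, beside 0.10 over all genes. At W12, 3 were higher (19.9% of all genes) and 19 lower (40.5%), with a median of -0.62 beside -0.45 over all genes.

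For *Znrf3* and *Ctnnb1*, the members with the widest range of acetylated share, the profile across the 5 lists was compared with that of other genes. These were all protein-coding genes whose window did not overlap that of the member, and Euclidean distance was taken in percentage points. For *Znrf3* the nearest genes were *Gpr3* (1.28), *Acsl1* (1.32) and *Apcdd1* (1.37), and for *Ctnnb1* they were *Hacl1* (0.683), *Jmjd1c* (0.711) and *Rnf217* (0.881). These distances describe similar levels over 5 lists and are given without a test.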

How the data were processed

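MINT-ChIP lists of H3K27ac and H3K4me1 were analysed; the total H3 libraries were not used. The authors separated reads by barcode and trimmed them with Skewer, used Bowtie2 for alignment to mm10 (GRCm38) and Picard against duplicates, then merged replicates and called H3K27ac with MACS2 and H3K4me1 with epic2. The submitters' processing notes name Bowtie2 2.2.9, SAMtools 1.9, MACS2 2.1.1, SICER 0.0.36 and deepTools 2.5.4. Caller settings are not given in the sources used here except that the W12 H3K27ac list is deposited under a name with a threshold mark that the other 4 lack. The lowest score in the deposited lists was 13 in all 5 H3K27ac lists and 10 in the culture lists. The cultured lists have the layout of MACS2 broad peaks, so that their caller is unclear. The deposited H3K4me1 lists of skin give a p-value for each domain. The deposited H3K27ac and culture lists give a score, a fold enrichment (a ratio to local background) and −log10 of p; their q column was not used.

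Covered bases, overlaps of at least 1 bp and motif matches were computed with Python 3.11.15, NumPy 2.4.6, pandas 2.3.3 and SciPy 1.17.1, using GENCODE M21 annotation and GRCm38 sequence. The interval functions were tested on simulated lists. A gene was called higher or lower where its covered bases differed by at least 1.5-fold, over genes with an interval in either list. Fragments at H3K27ac summits were recovered from the steps of the fold values, of which 82.3 to 95.9% fell on a step. Intervals for shares are exact Clopper-Pearson and, like Poisson intervals of fragments, cover counting error only. Those for shares take peaks or domains as independent, although many lie in the same window. Members and lists were chosen with earlier results of these data known. All 10 genes were described in every list. Named intervals were the highest-fold peak per gene at D0 and W2, up to 5 lasting gains, 5 losses and 3 W12 gains, and 3 culture gains and 3 losses; other intervals were named after their values were seen. Alternatives changed the overlap, score, list length, flank, joining, gene assignment and scaling.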

Additional observations from a re-analysis of the deposited data

How the results depend on the processing

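No paired analysis was possible because each list pools its replicates, and for the same reason no replicate could be left out. Each list was also cut to its higher-scoring intervals, those past the median. The share of WT culture domains without a counterpart in cells without DOX was then 35.7%. The share of domains without DOX that lacked a WT counterpart was 36%. No share over all domains at this cut is given beside them, so these values are not read as particular to the 10 windows. The cause of these higher shares was not tested. The other alternatives left the shares of gained and lost intervals inside the counting intervals of the reported values. The number of genes with at least 1.5-fold more H3K27ac at W2 was 2 within gene bodies alone (*Tcf7l1* and *Tcf7l2*) and 3 to 5 under the others. The number with at least 1.5-fold less was 0 with a 10 kb flank and 0 within gene bodies alone. It was 3 when covered bases were divided by the total of each list (*Lef1*, *Axin2* and *Nkd1*). Joining neighbouring intervals left 1, which was then *Axin2* in place of *Lef1*. All genes were not counted under these alternatives, so no background share stands beside these numbers. *Tcf7l2* was called higher under every alternative, *Tcf7l1* under each except the score limit, and *Ctnnb1* under each except the gene body alone. No called log2 ratio of a single gene changed sign under any alternative. The gene body alone was added for these ratios after seeing the data. Depth limits every list, since weak peaks rest on few fragments.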
